A study of Caenorhabditis elegans with 30 samples.

Results

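The linker histone H1 family of Caenorhabditis elegans was followed across 8 RNAi treatments and their empty-vector controls. The family was taken as the gene his-24 and the 8 genes named hil-1 to hil-8, which are 9 of the 46748 genes in the count table. Polyadenylated RNA had been sequenced from whole hermaphrodites of the wild-type strain N2, aged 5 days, fed bacteria that make double-stranded RNA. There were 10 groups of 3 libraries. In the library prefix ZK the RNAi groups were C01A2.5 (the gene tads-1), M04C9.5 (dyf-5), R186.7 (pnn-1) and ZK795.1 (ipmk-1), and their control was L4440_ZK. In the prefix RM they were R04E5.10 (ifd-1), F55H2.6 (clu-1), F25H2.5 (ndk-1) and F26D12.1 (fkh-7), and their control was L4440_RM. L4440 is the feeding vector without an insert, so RNAi and control animals alike ate vector-carrying bacteria. It is not stated that replicate libraries are from different cultures, so p-values measure the spread between these libraries, which may be technical.

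Linker histones bind where DNA enters and leaves the nucleosome and help fold nucleosomes into more compact chromatin. Unlike the core histones they are not part of the histone octamer, and most animals carry several H1 genes that are used in different cells and stages. In worms his-24 is known for a role in the silencing of germline chromatin and of repeated transgenes. hil-1 encodes a divergent H1 protein found outside the nucleus in muscle and pharynx. HMGA proteins, encoded in worms by hmg-11 and hmg-12, are another class of small proteins that bind linker DNA.

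Library totals ran from 31835911 to 44987307 gene counts. All 9 H1 genes passed the filter on low counts in every fit, at 10 to 9649 counts per library. The genes lie on chromosome X (his-24 at 14490094 to 14491119 and hil-3 at 8159169 to 8160084), chromosome V (hil-1 at 14949777 to 14952799, hil-4 at 4754313 to 4755453, hil-6 at 2030507 to 2031554), chromosome IV (hil-2 at 6294240 to 6295217, hil-7 at 6646312 to 6646972) and chromosome I (hil-5 at 5774585 to 5775610, hil-8 at 5463117 to 5469639) of the build WBcel235. hil-6 and hil-8 are on the minus strand, the others on the plus strand. Only his-24 shares exon bases with other annotated genes, which are 2 noncoding RNAs on the opposite strand that together took 38 and 3 counts over all 30 libraries. The annotation gives each H1 gene 2 to 7 exon blocks. Reads that fit several similar genes equally well could be split between H1 genes, and how they were counted is not given in the sources used here.

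The targeted genes pnn-1, ipmk-1, tads-1, ndk-1 and clu-1 fell in their own treatments, with log2 fold changes from -4.46 (ndk-1) to -0.62 (ipmk-1). Some of these genes also changed in other treatments. clu-1 fell in C01A2.5 (log2 -1.09 ± 0.06) and F25H2.5 (-0.67 ± 0.10), against -1.08 ± 0.10 in F55H2.6. pnn-1 (-0.93 ± 0.09) and ndk-1 (-0.87 ± 0.06) fell in C01A2.5, where most genes changed. ndk-1 also fell in F55H2.6 (-0.40 ± 0.12), a call not made when counts were scaled by library totals. The other way, ipmk-1 rose in C01A2.5 (0.58 ± 0.10) and pnn-1 in F25H2.5 (0.39 ± 0.07). In 3 groups the target named by the label did not fall, and the reason was not tested. dyf-5 was higher in the libraries labelled M04C9.5 (log2 fold change 4.75 ± 0.21, SE, adjusted p = 8.033e-17) and ifd-1 was higher in those labelled R04E5.10 (2.01 ± 0.25, adjusted p = 0.0009985). fkh-7 did not pass the test in those labelled F26D12.1 (0.23 ± 0.15, adjusted p = 0.9998). Directions given for these 3 groups are those of libraries with that label. Levels are counts normalised for library size (CPM) with trimmed-mean factors over all 30 libraries. Differences are log2 fold changes against the L4440 group of the same prefix from edgeR's quasi-likelihood test, with Benjamini-Hochberg adjustment over all genes and a threshold of 0.05. In whole animals fewer cells of a type and less RNA per cell cannot be told apart.

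In animals fed the empty vector, most H1 mRNA came from hil-4 and hil-5. Per kilobase of exon, hil-4 stood at 221 ± 9.91 CPM and hil-5 at 200.3 ± 20.7 CPM in L4440_ZK (SD, n = 3), and their libraries overlapped. Below them came hil-2 at 58.6 ± 6.45, his-24 at 29.2 ± 4.92, hil-1 at 21.4 ± 1.87 and hil-3 at 14.8 ± 2.49 CPM per kilobase, each with its libraries apart from those of the next. The lowest were hil-6 at 3.15 ± 0.18, hil-7 at 2.36 ± 0.33 and hil-8 at 0.70 ± 0.11 CPM per kilobase. In L4440_RM the order was hil-5, hil-4, hil-2, his-24, hil-1, hil-3, hil-7, hil-6 and hil-8. There hil-5 overlapped hil-4, and the libraries of his-24, hil-1 and hil-3 overlapped from each gene to the next.

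**Figure D1:**
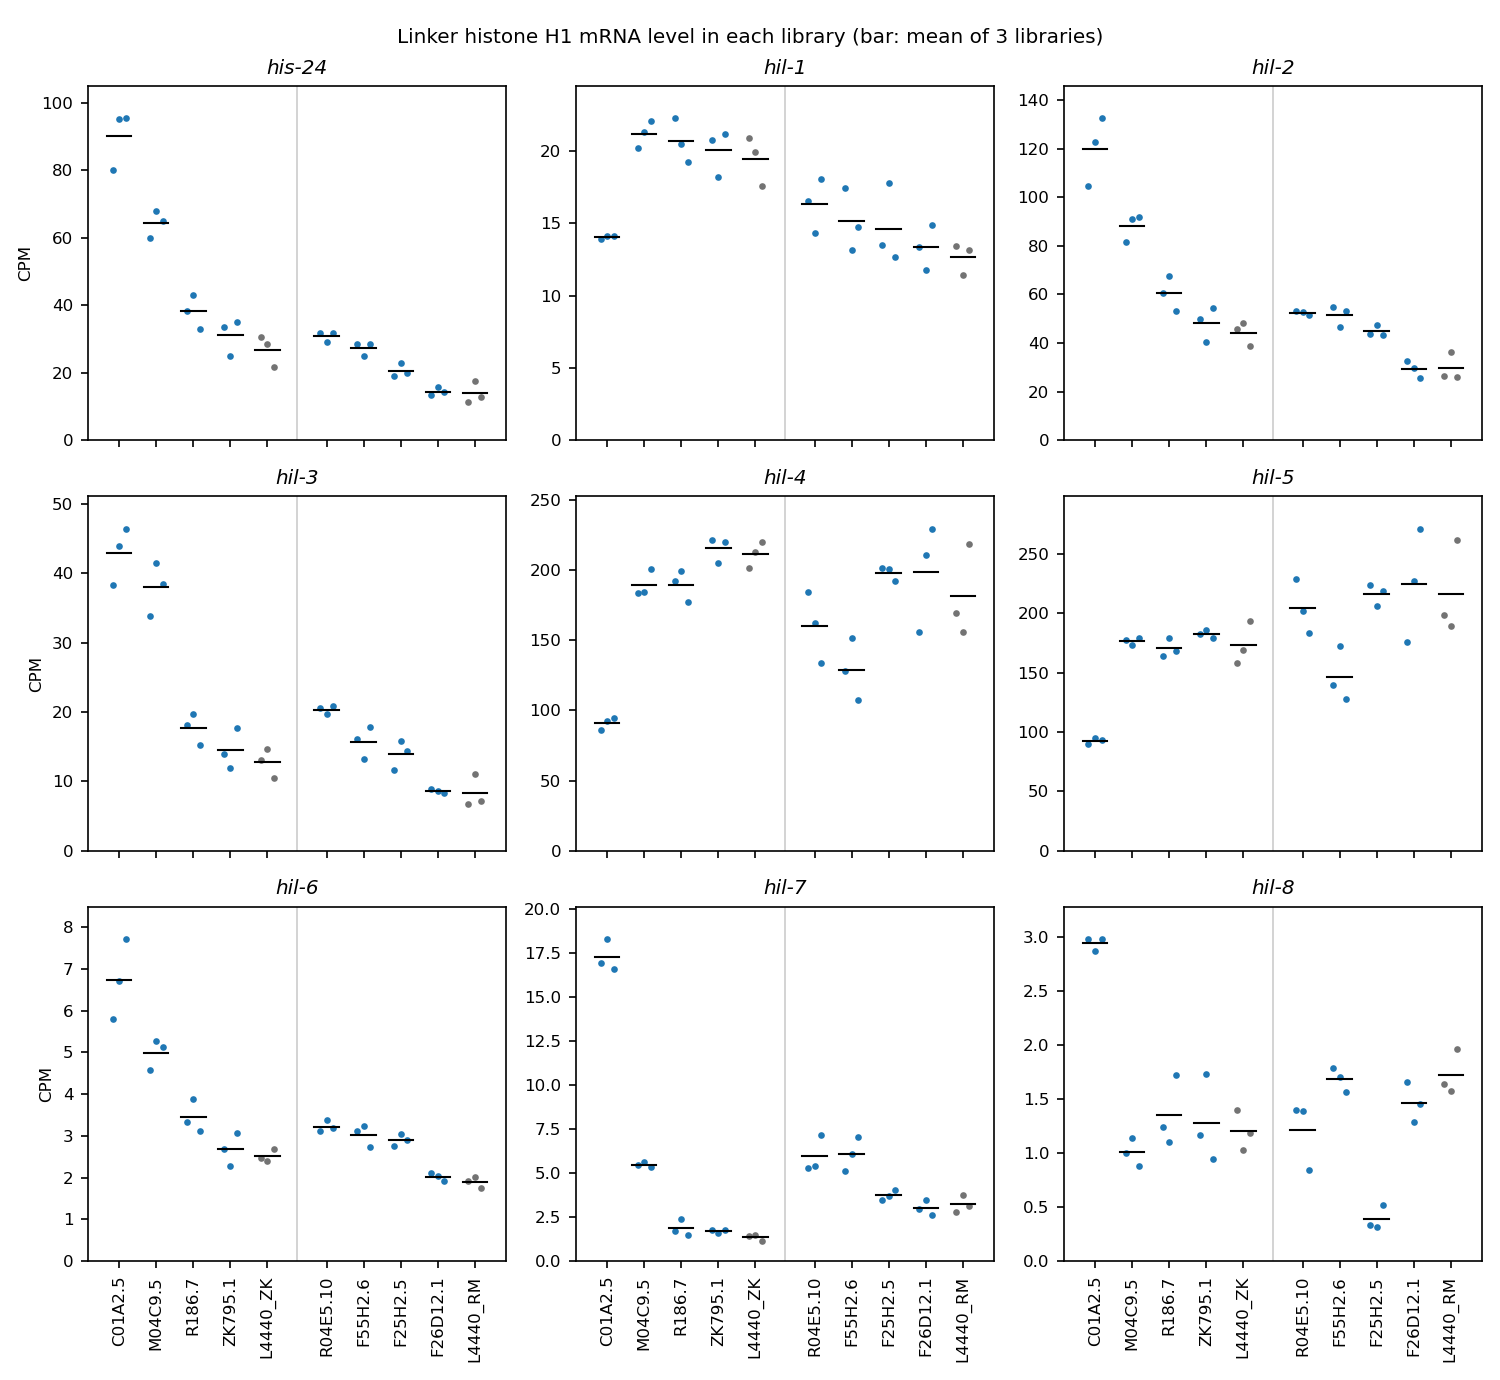
Level of each H1 gene in every library, in CPM on linear axes that start at 0 and differ between panels. Points are libraries and bars are means of 3; RNAi groups stand left of the grey L4440 group of their prefix. his-24, hil-2, hil-3, hil-6 and hil-7 are highest in C01A2.5, hil-4 and hil-5 are lowest there, and hil-8 is lowest in F25H2.5.

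All 9 H1 genes passed the test in C01A2.5: his-24, hil-2, hil-3, hil-6, hil-7 and hil-8 rose, and hil-1, hil-4 and hil-5 fell. Most genes changed in this treatment, 51.7% of all genes tested being higher and 36.4% lower, so the number of H1 genes called is near that background. The median log2 fold change was 1.4 over the H1 genes and 0.42 over all genes.

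hil-7 had the largest rise of the family, with 16.9, 18.3 and 16.6 CPM in the C01A2.5 libraries, against 1.43, 1.497 and 1.14 CPM in L4440_ZK. The groups were far apart, and the fold change was 12.8 (log2 3.67 ± 0.13, adjusted p = 2.231e-22). his-24 had 79.97, 95.1 and 95.5 CPM in C01A2.5, against 30.5, 28.4 and 21.8 CPM in L4440_ZK (log2 1.74 ± 0.15, adjusted p = 3.334e-07). hil-3, an H1 gene of the X chromosome like his-24, had 38.3, 43.9 and 46.5 CPM in C01A2.5, against 13.2, 14.7 and 10.5 CPM in L4440_ZK (log2 1.75 ± 0.15). Each of these genes was above the control in every C01A2.5 library. hil-2 reached 104.6, 122.9 and 132.5 CPM in C01A2.5, against 45.7, 48.3 and 38.9 CPM in L4440_ZK (log2 1.43 ± 0.13). The less abundant hil-6 rose by 1.4 ± 0.13 and hil-8 by 1.27 ± 0.18 on the log2 scale.

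The 2 most abundant H1 genes moved the other way. hil-4 had 86.3, 92.5 and 94.6 CPM in C01A2.5, against 201, 213 and 219.9 CPM in L4440_ZK, a fall with no overlap (log2 -1.22 ± 0.06, adjusted p = 4.397e-19). hil-5 had 89.8, 94.7 and 93.3 CPM in C01A2.5, against 158.4, 169 and 193.5 CPM in L4440_ZK (log2 -0.92 ± 0.06, adjusted p = 2.42e-15). hil-1 fell less, to 14.1 ± 0.11 CPM in C01A2.5, against 19.5 ± 1.70 CPM in L4440_ZK (log2 -0.48 ± 0.08). With relative log expression factors the median of all genes was 0.19, and with library totals it was 0.66; the same count of 6 higher and 3 lower H1 genes was found under both.

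Markers of other tissues moved in the same libraries. All 12 sperm markers rose, their summed level being 1465 to 1631 CPM in C01A2.5, against 5.25 to 7.51 CPM in L4440_ZK. All 10 germline markers fell (8 with library totals), to a summed 1704 to 1815 CPM in C01A2.5, against 3027 to 3253 CPM in L4440_ZK. In every group except M04C9.5, where ssp-9 was at 0, each sperm marker had counts. Of 13 oocyte and eggshell markers, 11 fell and 2 rose, and of 7 early embryo markers tested, 5 fell and 1 rose. Markers of intestine (6 of 6), pharynx (5 of 5), body muscle (5 of 6), neurons (5 of 7, with 1 lower) and hypodermis (4 of 6, with 1 lower) rose. All 30 major sperm protein genes tested also rose. Their part in the H1 values was not tested.

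Other chromatin genes are given here beside the H1 family. All 10 histone chaperone genes fell in C01A2.5, led by unc-85, a homologue of the H3-H4 chaperone ASF1 (log2 -1.32 ± 0.06). Of 15 genes of DNA replication and division, 14 fell, among them cdk-1 (log2 -1.30 ± 0.06). Of 17 genes of heterochromatin and silencing, 12 fell and 1 rose (16 and 0 with relative log expression factors, 11 and 4 with library totals); hpl-2, a homologue of heterochromatin protein HP1, fell by 0.96 on the log2 scale. All 6 sperm chromatin genes rose, with the sperm histone variant gene htas-1 at a log2 fold change of 9.69 ± 0.15. Of 8 replacement histone variants tested, 3 rose and 4 fell, and all 3 genes of histone mRNA 3′ end formation fell. Of the 28 core histone genes tested, 14 rose and 10 fell. Here and below these are all genes named his- other than his-24. They include replacement variants such as his-71, so the lists share genes. Of 6 HMG-box and HMGA genes, 2 rose and 4 fell with the main scaling, against 1 and 4 with relative log expression factors and 2 and 3 with library totals.

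**Figure D2:**
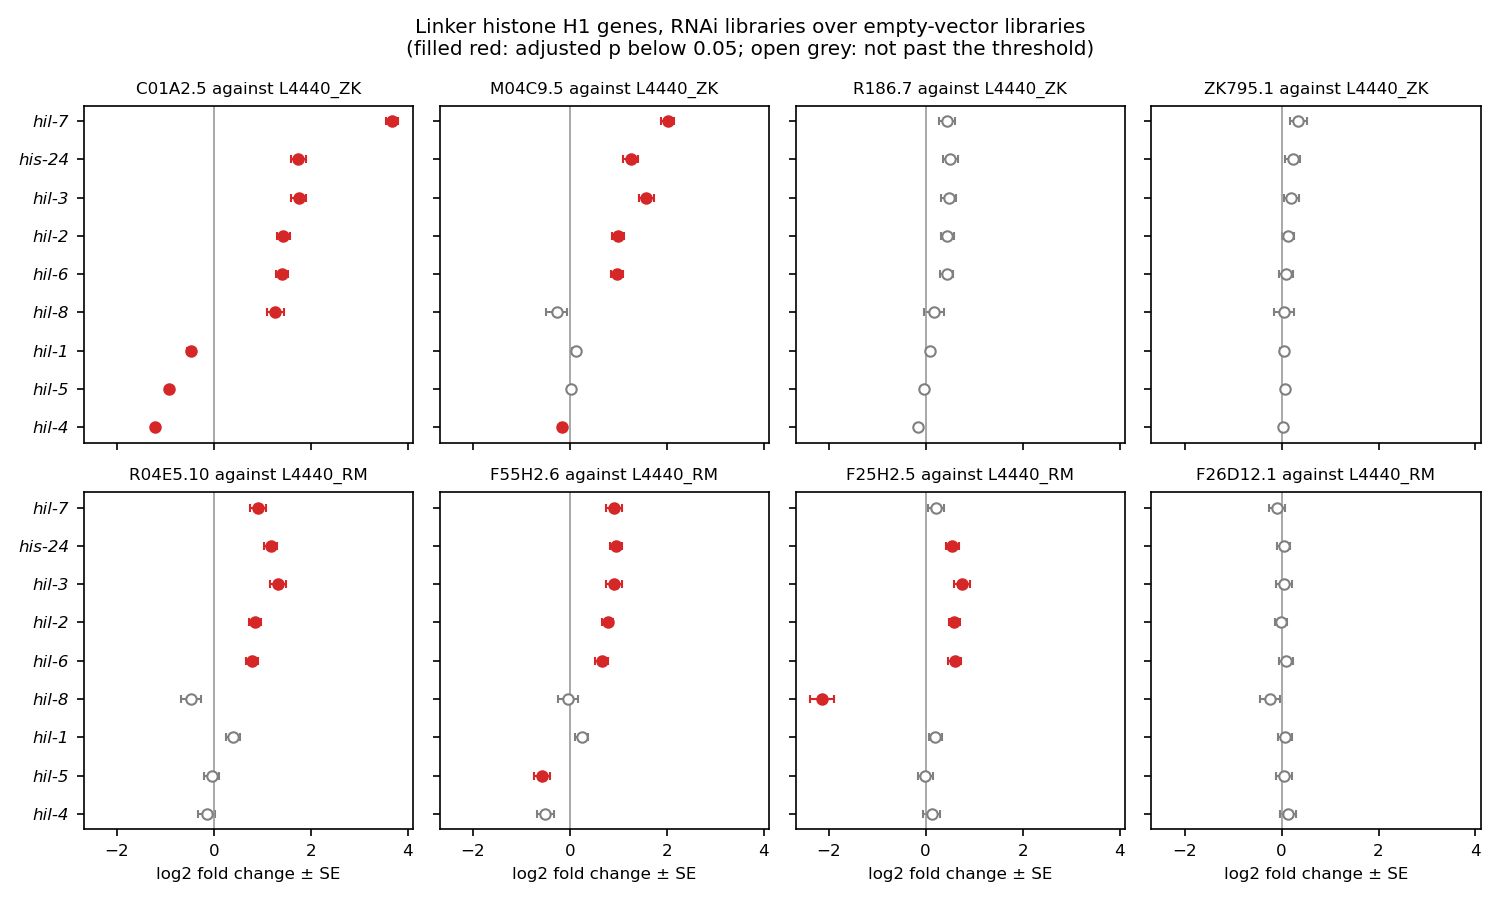
Log2 fold change of each H1 gene in each RNAi group over the L4440 group of its prefix, with its standard error as the bar; a point right of the vertical line is higher in RNAi libraries. Filled red points passed the adjusted threshold of 0.05 and open grey points did not. his-24, hil-2, hil-3 and hil-6 lie right of the line and are filled in C01A2.5, M04C9.5, R04E5.10, F55H2.6 and F25H2.5.

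In the libraries labelled M04C9.5, 5 of the 9 H1 genes rose and 1 fell. Among all genes tested, 10.3% were higher and 9.5% were lower, and the median log2 fold change was 0.98 over the H1 genes and -0.003 over all genes. hil-7 had 5.45, 5.64 and 5.34 CPM in libraries labelled M04C9.5, against 1.43, 1.497 and 1.14 CPM in L4440_ZK (log2 2.02 ± 0.14, adjusted p = 2.088e-12). hil-3 had 33.9, 41.5 and 38.5 CPM in libraries labelled M04C9.5, against 13.2, 14.7 and 10.5 CPM in L4440_ZK (log2 1.58 ± 0.15, adjusted p = 8.166e-06). The M04C9.5 libraries were above every control library for both genes. his-24 had 60.1, 67.9 and 65 CPM in libraries labelled M04C9.5, against 30.5, 28.4 and 21.8 CPM in L4440_ZK (log2 1.26 ± 0.15). hil-2 had 81.4, 91.1 and 91.9 CPM there, against 45.7, 48.3 and 38.9 CPM in L4440_ZK (log2 0.99 ± 0.13). hil-6 rose by 0.98 ± 0.13 on the log2 scale.

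hil-4 was slightly lower, at 189.1 ± 9.66 CPM in libraries labelled M04C9.5, against 211 ± 9.46 CPM in L4440_ZK (log2 -0.17 ± 0.05, adjusted p = 0.0271). That call was lost when M04C9.5 replicate 1, M04C9.5 replicate 2 or L4440_ZK replicate 2 was left out (adjusted p = 0.1119, 0.147 and 0.06738), with library totals (adjusted p = 0.2625) and in the fit of all 30 libraries (adjusted p = 0.5041). hil-5 (log2 0.02 ± 0.06), hil-1 (0.12 ± 0.07) and hil-8 (-0.27 ± 0.22) did not pass the test. In the same libraries 4 of 6 intestine markers and 4 of 6 body muscle markers fell, and 3 of 5 pharynx markers rose. The summed intestine level was 15070 to 18780 CPM in libraries labelled M04C9.5, against 30760 to 32270 CPM in L4440_ZK. The median log2 fold change of the 6 intestine markers was -0.48. This list includes yolk protein genes, and the part of each gene in the sum was not computed. Of the germline markers 2 of 10 fell, and of the oocyte and eggshell markers 6 of 13; these counts were 6 and 9 with relative log expression factors and 0 and 3 with library totals. None of the 12 sperm markers passed, their summed level being 5.99 to 6.42 CPM in libraries labelled M04C9.5, against 5.25 to 7.51 CPM in L4440_ZK. Their part in the H1 values was not tested.

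The libraries labelled R04E5.10 showed the same 5 H1 genes higher, while few other genes changed. his-24, hil-2, hil-3, hil-6 and hil-7 rose and 0 H1 genes fell, against 1.56% of all genes higher and 0.715% lower. The median log2 fold change was 0.79 over the H1 genes and 0.002 over all genes. hil-3 had 20.6, 19.7 and 20.8 CPM in libraries labelled R04E5.10, against 6.68, 11 and 7.24 CPM in L4440_RM (log2 1.32 ± 0.16, adjusted p = 0.0005957). his-24 had 31.8, 29.3 and 31.7 CPM in libraries labelled R04E5.10, against 11.4, 17.7 and 13 CPM in L4440_RM (log2 1.17 ± 0.13, adjusted p = 0.0002786). For both genes the R04E5.10 libraries lay close together and the control libraries were all lower. hil-2 had 53.1, 52.7 and 51.8 CPM in libraries labelled R04E5.10, against 26.7, 36.5 and 26.1 CPM in L4440_RM (log2 0.85 ± 0.12, adjusted p = 0.001108).

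hil-7 stood at 5.30, 5.38 and 7.15 CPM in libraries labelled R04E5.10, against 2.79, 3.75 and 3.13 CPM in L4440_RM (log2 0.91 ± 0.17, adjusted p = 0.008866). Its call was lost at the margin without L4440_RM replicate 1 (adjusted p = 0.05104) or R04E5.10 replicate 3 (adjusted p = 0.05009). hil-6 had 3.11, 3.37 and 3.19 CPM in libraries labelled R04E5.10, against 1.92, 2.03 and 1.76 CPM in L4440_RM (log2 0.79 ± 0.13, adjusted p = 0.004786). In a fit of only the 6 libraries compared, both calls were lost at the margin (adjusted p = 0.0526 for hil-6 and 0.05505 for hil-7). Both were also lost without the third library of every RM group (adjusted p = 0.064 and 0.06104). hil-4 (log2 -0.15 ± 0.17), hil-5 (-0.05 ± 0.16), hil-1 (0.39 ± 0.14, adjusted p = 0.1799) and hil-8 (-0.47 ± 0.21) did not pass. Here 0 of 10 germline, 0 of 13 oocyte and eggshell and 0 of 10 sperm markers tested passed in either direction in the edgeR test. Of 6 intestine markers 1 fell, and their summed level was 18020 to 19980 CPM in libraries labelled R04E5.10, against 25490 to 30580 CPM in L4440_RM, without overlap. Their median log2 fold change was -0.28, and the part of the yolk protein genes in the sum was not computed. Of 6 hypodermis markers 1 rose (0 with library totals), but the median log2 fold change of the 6 was -0.40. Their summed level was 58.6 to 142.5 CPM in libraries labelled R04E5.10, overlapping the 77.7 to 126 CPM in L4440_RM. The part of these markers in the H1 values was not tested. Of the chromatin lists, 1 HMG gene rose, 1 core histone gene rose and 1 fell.

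F55H2.6, in which the mRNA of the mitochondrial clustering protein CLU-1 fell, also had 5 H1 genes higher and 1 lower. Of all genes, 10.4% were higher and 8.54% lower, and the median log2 fold change was 0.66 over the H1 genes and 0.04 over all genes. his-24 had 28.6, 25.1 and 28.6 CPM in F55H2.6, against 11.4, 17.7 and 13 CPM in L4440_RM (log2 0.96 ± 0.13, adjusted p = 0.0001474). hil-7 had 5.14, 6.11 and 7.07 CPM in F55H2.6, against 2.79, 3.75 and 3.13 CPM in L4440_RM (log2 0.91 ± 0.17, adjusted p = 0.001715). All F55H2.6 libraries were above the controls for both genes. hil-3 rose by 0.91 ± 0.16, hil-2 by 0.78 ± 0.12 and hil-6 by 0.66 ± 0.13 on the log2 scale.

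hil-5 had 139.3, 172 and 128.1 CPM in F55H2.6, against 198.5, 189.1 and 261.5 CPM in L4440_RM (log2 -0.57 ± 0.16, adjusted p = 0.0267). The highest control was L4440_RM replicate 3, and without it the adjusted p was 0.1071. The call was also lost without F55H2.6 replicate 1 (adjusted p = 0.06971), without F55H2.6 replicate 3 (adjusted p = 0.1463) and with no filter on low counts (adjusted p = 0.07241). hil-4 had 127.6, 151.1 and 107.4 CPM in F55H2.6, against 169.3, 156 and 218.5 CPM in L4440_RM, and did not pass (log2 -0.50 ± 0.17, adjusted p = 0.0562), although the groups did not overlap. DESeq2 called hil-4 lower (adjusted p = 0.004431), and it was called without F55H2.6 replicate 2 (adjusted p = 0.02849) or L4440_RM replicate 2 (adjusted p = 0.04543). In the same libraries 6 of 10 germline and 10 of 13 oocyte and eggshell markers fell (4 and 8 with library totals). The summed germline level was 1782 to 2138 CPM in F55H2.6, against 2344 to 2500 CPM in L4440_RM; its part in the H1 values was not tested. Of the histone chaperones 3 of 10 fell, and of the genes of replication and division 4 of 15 (11 with relative log expression factors, 2 with 1 higher with library totals).

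F25H2.5, in which the mRNA of the nucleoside diphosphate kinase gene ndk-1 fell, combined smaller rises with a fall of hil-8. There his-24, hil-2, hil-3 and hil-6 rose and hil-8 fell, against 5.26% of all genes higher and 3.39% lower. The median log2 fold change was 0.21 over the H1 genes and -0.003 over all genes. hil-8 had 12, 10 and 19 counts in the F25H2.5 libraries, against 64, 52 and 69 counts in L4440_RM. In CPM these are 0.34, 0.31 and 0.52 in F25H2.5, against 1.64, 1.57 and 1.96 in L4440_RM, a clear gap at a low level (log2 -2.13 ± 0.25, adjusted p = 0.0002224). The fall was called under all 14 alternatives tried. hil-8 was also lower in F25H2.5 than in each other RNAi group of the prefix: by log2 -2.08 ± 0.25 against F55H2.6 (adjusted p = 2.405e-05), -1.66 ± 0.25 against R04E5.10 (adjusted p = 0.0009796) and -1.90 ± 0.25 against F26D12.1 (adjusted p = 0.0003753).

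Among the genes that rose in F25H2.5, hil-2 had 43.9, 47.7 and 43.5 CPM, against 26.7, 36.5 and 26.1 CPM in L4440_RM (log2 0.59 ± 0.12, adjusted p = 0.006178). It was called under every alternative. hil-3 had 11.7, 15.8 and 14.4 CPM in F25H2.5, against 6.68, 11 and 7.24 CPM in L4440_RM (log2 0.74 ± 0.16, adjusted p = 0.0107). his-24 rose by 0.55 ± 0.13 (adjusted p = 0.0161) and hil-6 by 0.60 ± 0.13 (adjusted p = 0.0111). Each of these 3 calls was lost when some single libraries were left out, although the sign stayed the same under every alternative. Without F25H2.5 replicate 2 the adjusted p was 0.06591 for hil-3, 0.09397 for his-24 and 0.05693 for hil-6. Without L4440_RM replicate 1 it was 0.05556 for hil-3 and 0.07858 for his-24, and without L4440_RM replicate 3 it was 0.0633 for his-24 and 0.05182 for hil-6. hil-7 (log2 0.21 ± 0.17), hil-1 (0.20 ± 0.14), hil-4 (0.12 ± 0.17) and hil-5 (-0.01 ± 0.16) did not pass. Of the histone chaperones 4 of 10 rose, of the replication and division genes 5 of 15 and of the heterochromatin genes 4 of 17, while 2 of 3 genes of histone mRNA 3′ end formation fell. Of 25 core histone genes tested 5 rose and 0 fell. Of 5 pharynx markers 2 fell, their summed level being 35.9 to 38.6 CPM in F25H2.5, against 46.9 to 66.3 CPM in L4440_RM. Of 26 major sperm protein genes tested 2 fell, of 10 sperm markers 1, and of 10 germline markers 1 (0 with relative log expression factors). Of 13 oocyte and eggshell markers 1 rose, and 0 early embryo, intestine, body muscle, neuron or hypodermis markers passed. The median log2 fold change was nevertheless -0.82 over hypodermis, -0.53 over body muscle and -0.64 over sperm markers. It was -0.95 over major sperm protein genes, -0.12 over early embryo, -0.08 over intestine and -0.01 over neuron markers. The part of these markers in the H1 values was not tested.

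In R186.7, ZK795.1 and the libraries labelled F26D12.1, 0 of the 9 H1 genes passed the edgeR test. Over all genes, 1.86% were higher and 0.691% lower in R186.7, 1.31% higher and 0.679% lower in ZK795.1, and 0.00633% higher and 0% lower in libraries labelled F26D12.1. R186.7 came nearest: 6 of 9 H1 genes had an unadjusted p below 0.05, against 14.5% of all genes, and DESeq2 called 3 of 9 (his-24 and hil-2 higher, hil-4 lower), against 5.86% of the genes it tested. his-24 had 38.4, 43.2 and 33.1 CPM in R186.7, against 30.5, 28.4 and 21.8 CPM in L4440_ZK (log2 0.50 ± 0.15, adjusted p = 0.1401). hil-2 had 60.6, 67.6 and 53.2 CPM in R186.7, against 45.7, 48.3 and 38.9 CPM in L4440_ZK (log2 0.45 ± 0.13, adjusted p = 0.1094). Every R186.7 library was above the controls for these genes. hil-3 (log2 0.47 ± 0.16), hil-7 (0.45 ± 0.17) and hil-6 (0.43 ± 0.14) had values of like size, and hil-4 had -0.16 ± 0.05. pnn-1, the target of R186.7, encodes a homologue of pinin, a nuclear protein linked to mRNA splicing. Among 28 genes named his- other than his-24 that were tested, 11 rose in R186.7 and 0 fell, for example his-59 (log2 1.14 ± 0.10) and his-67 (1.12 ± 0.11). Many of these genes are near-identical copies that share reads, and most mRNAs of replication-dependent core histones lack a poly(A) tail, so these values are uncertain.

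In ZK795.1, whose target ipmk-1 encodes an inositol phosphate kinase, the H1 values ran from a log2 fold change of 0.03 (hil-4) to 0.35 (hil-7), and 1 of them had an unadjusted p below 0.05 (hil-7, 0.35 ± 0.17, adjusted p = 0.3178). In libraries labelled F26D12.1 they ran from -0.23 ± 0.21 for hil-8 to 0.13 ± 0.17 for hil-4, with 0 at an unadjusted p below 0.05. Over all genes 15.3% had an unadjusted p below 0.05 in ZK795.1 and 2.28% in libraries labelled F26D12.1. DESeq2 called 0 H1 genes in both comparisons, against 5.53% and 0.0152% of the genes it tested. hil-4 and hil-5 spread widely within F26D12.1, with 155.9, 211 and 229 CPM for hil-4 and 175.7, 227 and 271.5 CPM for hil-5.

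RNAi groups of a prefix share their controls, so they were also set directly against each other. Over the 6 pairs of ZK groups, 38 of 54 H1 values passed the test. The background was high in the pairs with C01A2.5, where 86.7% of all genes differed from R186.7, 87.8% from ZK795.1 and 87% from M04C9.5. hil-3 did not pass between C01A2.5 and M04C9.5 (log2 0.17 ± 0.14, adjusted p = 0.2664), with 38.3 to 46.5 CPM in C01A2.5 and 33.9 to 41.5 CPM in libraries labelled M04C9.5. hil-7 was higher in C01A2.5 than in libraries labelled M04C9.5 by log2 1.65 ± 0.10 (adjusted p = 8.227e-16), and hil-8 by 1.54 ± 0.18. his-24 (log2 0.48 ± 0.14, adjusted p = 0.00746) and hil-2 (0.44 ± 0.12, adjusted p = 0.004775) were higher in C01A2.5 as well, but not with relative log expression factors (adjusted p = 0.05925 for his-24 and 0.05648 for hil-2). DESeq2 also called neither his-24 (adjusted p = 0.0877) nor hil-2 (0.09413), nor hil-6 (0.1671), which was higher in the edgeR test. With no filter on low counts his-24 was not called (adjusted p = 0.06013). With library totals hil-3 passed too (adjusted p = 0.04576).

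his-24, hil-2, hil-3, hil-6 and hil-7 were each higher in libraries labelled M04C9.5 than in R186.7 and than in ZK795.1. These were 5 of the 5 calls against R186.7 and 5 of the 6 against ZK795.1, with 17% and 24.6% of all genes called in those pairs. Between R186.7 and ZK795.1 only hil-4 passed, lower in R186.7 (log2 -0.19 ± 0.05, adjusted p = 0.0244), at a background of 8.51%. That hil-4 call was lost without replicate 1 or 3 of R186.7 (adjusted p = 0.0709 and 0.1301) or of ZK795.1 (adjusted p = 0.141 and 0.07236).

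Over the 6 pairs of RM groups, 27 of 54 H1 values passed. R04E5.10 and F55H2.6 differed from F26D12.1 in his-24, hil-2, hil-3, hil-6 and hil-7, all higher, with 3.22% and 22.9% of all genes called. F55H2.6 was also lower than F26D12.1 in hil-4 (log2 -0.63 ± 0.17, adjusted p = 0.0192) and hil-5 (-0.63 ± 0.16, adjusted p = 0.0157). Both were lost without F55H2.6 replicate 3 (adjusted p = 0.1036 for hil-4 and 0.09314 for hil-5), F26D12.1 replicate 2 (0.06961 and 0.05344) or F26D12.1 replicate 3 (0.07738 and 0.06294). Between F55H2.6 and R04E5.10 1 H1 gene passed, hil-5, lower in F55H2.6 (log2 -0.52 ± 0.16, adjusted p = 0.0388), while 18.9% of all genes did. It was called under 9 of 19 alternatives, with an adjusted p of 0.1922 without F55H2.6 replicate 3 and 0.1669 without R04E5.10 replicate 1. hil-7 was lower in F25H2.5 than in F55H2.6 and than in libraries labelled R04E5.10, by log2 -0.70 ± 0.16 in each pair (adjusted p = 0.005441 and 0.0148). Against R04E5.10 that call was lost without F25H2.5 replicate 1 (adjusted p = 0.07532), F25H2.5 replicate 2 (0.06672) or R04E5.10 replicate 3 (0.08706). F25H2.5 differed in 5 H1 genes from F55H2.6, in 4 from R04E5.10 and in 5 from F26D12.1, at backgrounds of 25.9%, 8.15% and 11.5%. The least stable of these was hil-3 against R04E5.10, called under 11 of 19 alternatives. hil-6 against F26D12.1 was called under 13, and his-24 and hil-5 against F55H2.6 under 14 each. The other calls in these pairs were made under 15 to 19.

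The empty-vector animals of the 2 prefixes also differed. L4440_RM had 5 H1 genes lower than L4440_ZK (his-24, hil-1, hil-2, hil-3 and hil-6) and 2 higher (hil-5 and hil-7), against 19.9% of all genes lower and 23.9% higher. his-24 stood at 14 ± 3.26 CPM in L4440_RM and 26.9 ± 4.54 CPM in L4440_ZK (log2 -0.94 ± 0.15, adjusted p = 2.701e-05). hil-7 stood at 3.22 ± 0.49 CPM in L4440_RM and 1.35 ± 0.19 CPM in L4440_ZK (log2 1.25 ± 0.17, adjusted p = 3.688e-06). hil-2 fell by 0.58, hil-3 by 0.62 and hil-1 by 0.62 on the log2 scale. The hil-5 value (0.32 ± 0.13, adjusted p = 0.0495) was lost without L4440_RM replicate 3 (adjusted p = 0.3565), L4440_ZK replicate 1 (adjusted p = 0.174) or L4440_ZK replicate 2 (adjusted p = 0.1992). hil-6 (-0.41 ± 0.14, adjusted p = 0.0163) was lost without L4440_RM replicate 3 (adjusted p = 0.06472) or L4440_ZK replicate 3 (adjusted p = 0.06747), and with library totals (adjusted p = 0.1001). With L4440_RM replicate 3 left out hil-4 passed as lower (log2 -0.39 ± 0.13, adjusted p = 0.0224). hil-8, not called, passed as higher without L4440_ZK replicate 1 (adjusted p = 0.0433) and with library totals (adjusted p = 0.01566). In L4440_RM all 6 body muscle and all 6 hypodermis markers were higher, 11 of 12 sperm markers were higher and 8 of 10 germline markers were lower (6, with 1 higher, with library totals). The prefix and any batch that goes with it cannot be told apart.

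The make-up of H1 mRNA differed between groups. The 5 genes his-24, hil-2, hil-3, hil-6 and hil-7 were grouped after their values had been seen, so their sum is a description with no test. Per kilobase, they made up 61 ± 1.64% of summed H1 mRNA in C01A2.5, 36.6 ± 1.61% in libraries labelled M04C9.5, 26.25 ± 1.64% in R186.7 and 20.8 ± 2.41% in ZK795.1, against 19.6 ± 2.86% in L4440_ZK (SD, n = 3). In the other prefix they made up 29.1 ± 4.57% in F55H2.6, 25.2 ± 2.48% in libraries labelled R04E5.10, 18.6 ± 1.29% in F25H2.5 and 13.4 ± 3.09% in libraries labelled F26D12.1, against 13.99 ± 4.03% in L4440_RM. hil-4 and hil-5 together held 35.9 ± 1.43% in C01A2.5, against 76.4 ± 3.30% in L4440_ZK.

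With the trimmed-mean factors, the summed level over all 9 genes was 564 ± 41.3 CPM per kilobase in C01A2.5 and 552 ± 17.9 in L4440_ZK. The sum was not computed with other factors. In C01A2.5 these moved the median log2 fold change of the H1 genes from 1.4 to 1.17 (relative log expression) or 1.64 (library totals). Whether the sum differs between these groups therefore depends on the scaling. In libraries labelled M04C9.5 the sum was 672 ± 23.2. In the RM prefix it was lowest in F55H2.6, at 452 ± 38.1, against 526 ± 72.8 in L4440_RM, and the libraries of F55H2.6 (415 to 491) and L4440_RM (484 to 611) overlapped. In C01A2.5 the order per kilobase was hil-2 at 158.8 ± 18.7, hil-5 at 106.8 ± 2.88, his-24 at 97.7 ± 9.59 and hil-4 at 95.4 ± 4.52 CPM, and only his-24 and hil-4 among these overlapped as neighbours.

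**Figure D3:**
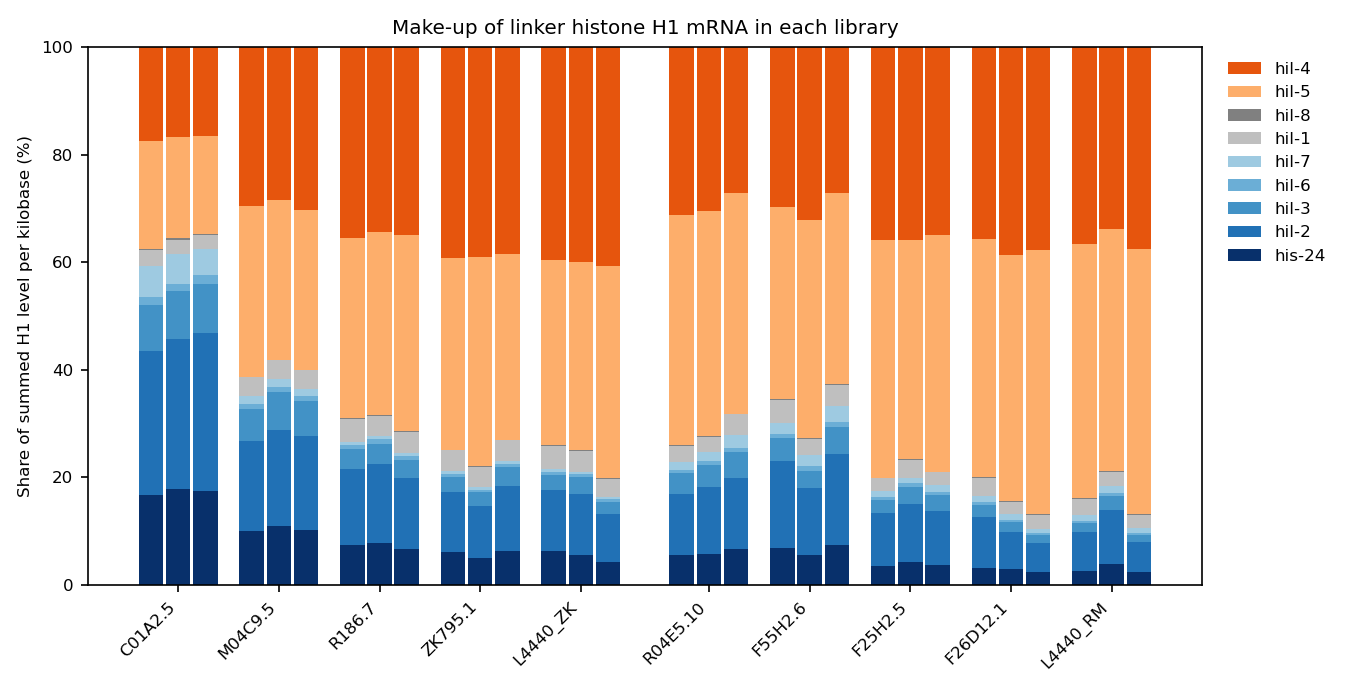
Share of each H1 gene in the summed H1 level per kilobase of exon, 1 bar per library in groups of 3, with RNAi groups left of the L4440 group of their prefix. Blue shades (his-24, hil-2, hil-3, hil-6, hil-7) fill 61% of the bars on average in C01A2.5, against 19.6% in L4440_ZK, and orange shades (hil-4, hil-5) fill most of the rest.

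Pairs of H1 genes differed in how closely they varied together across the libraries. Over all 30 libraries, log2 CPM of his-24 and hil-2 had a Pearson correlation of 0.981, hil-2 and hil-3 of 0.976, and hil-2 and hil-6 of 0.975; hil-4 and hil-5 had 0.843. Without the 3 C01A2.5 libraries these were 0.969, 0.967, 0.956 and 0.591. hil-7 followed hil-2 with 0.611 over 30 libraries and 0.275 over 27, and hil-2 and hil-4 had -0.573 and -0.147. hil-1 had 0.434 with his-24 and 0.348 with hil-2 over 30 libraries, and 0.797 and 0.708 over 27. hil-8 had 0.327 with hil-7 over 30 libraries, its highest value with any other H1 gene, and -0.109 over 27. Libraries share groups and prefixes, so these values are descriptions.

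Among all genes with a mean of at least 1 CPM, the one most like hil-4 was the HMGA gene hmg-12, with a correlation of 0.995 over 30 libraries and 0.99 over 27. The other HMGA gene, hmg-11, was the gene most like hil-2 over 27 libraries (0.976) and the third most like his-24 (0.975). hmg-11 rose in C01A2.5, M04C9.5, F55H2.6 and R04E5.10. It had 25.2, 26.4 and 26 CPM in libraries labelled R04E5.10, against 11.2, 15.2 and 11.8 CPM in L4440_RM (log2 1.05 ± 0.15, adjusted p = 0.001271). hmg-12 fell in C01A2.5, to 118.4 ± 1.42 CPM, against 266 ± 11.5 CPM in L4440_ZK (log2 -1.18 ± 0.06, adjusted p = 1.808e-18). In libraries labelled M04C9.5 it fell by 0.19 on the log2 scale with the main scaling, a call not made with library totals (adjusted p = 0.1497).

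Over 30 libraries the nearest gene of hil-6 was another H1 gene, hil-2 (0.975). hil-3 had unc-39 (0.976) and hil-2 (0.976) as its nearest. The nearest genes of hil-5 were mesp-1 (0.972), C24D10.4 (0.968) and memi-3 (0.966). Those of hil-7 were dpy-14 (0.971), aqp-2 (0.968) and dpy-17 (0.965). dpy-14 and dpy-17 encode cuticle collagens. For hil-1 the nearest were D2030.2 (0.923) and uaf-2 (0.92). hil-8 had lower values, the nearest being atl-1 (0.824) over 30 libraries and F25H2.7 (0.857) over 27. Its counts were low, at 10 to 122 per library, which limits any correlation. The name F25H2.7 shares its prefix with F25H2.5, the target of the group in which hil-8 was lowest. Whether that group alone set this match was not tested.

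**Figure D4:**
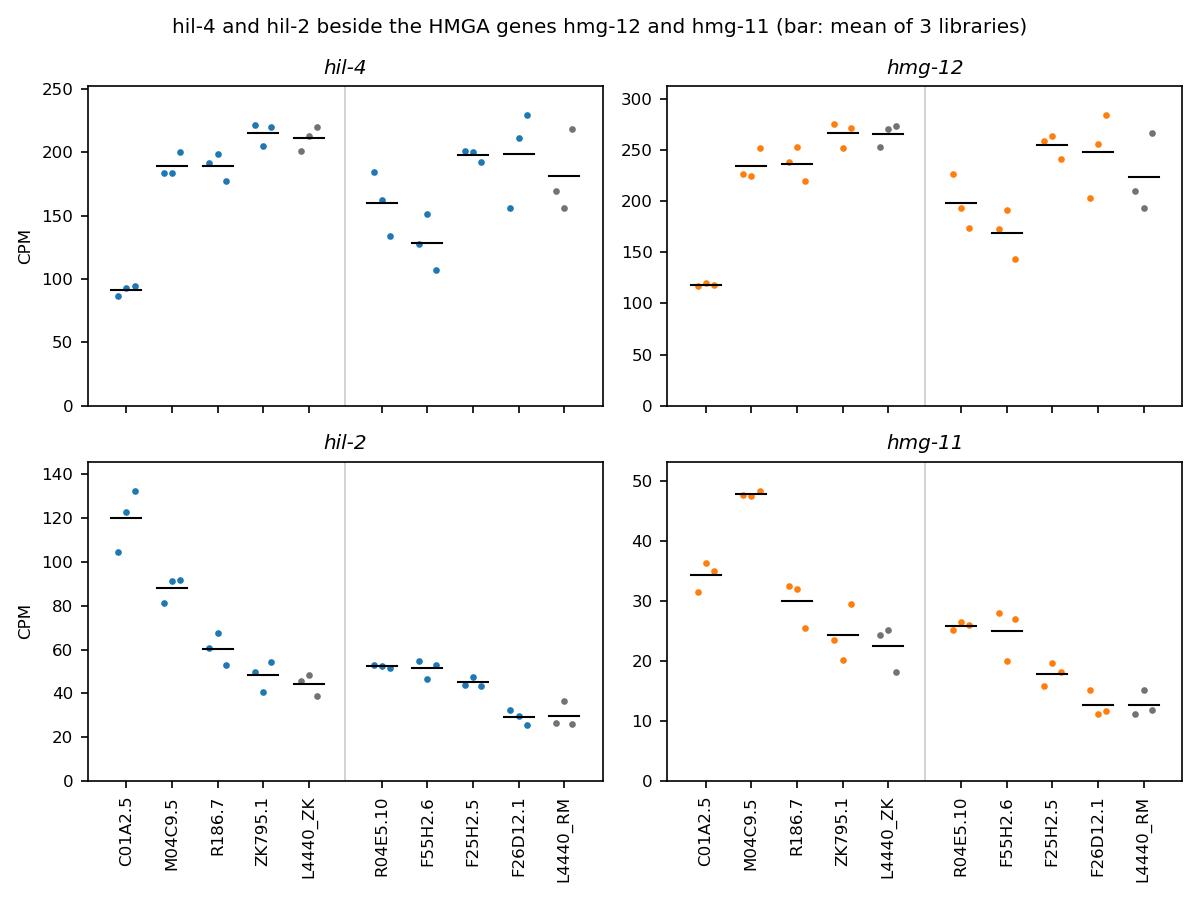
Level of hil-4 beside hmg-12 and of hil-2 beside hmg-11 in every library, in CPM on linear axes that start at 0. Points are libraries, bars are means of 3, and RNAi groups stand left of the grey L4440 group of their prefix. hil-4 and hmg-12 are both lowest in C01A2.5, while hil-2 is highest there and hmg-11 is highest in M04C9.5.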

How the data were processed

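Counts of reads per gene in 30 libraries were used as deposited. Per the submitters' processing notes, the authors used bcl2fastq 1.8.4, STAR 2.4.1d and featureCounts 1.4.6-p4 with the build WBcel235. The library kit was TruSeq RNA v2 per the labels; it captures poly(A) RNA without keeping strand. A deposited table of RPKM was not used. Genes were filtered with filterByExpr, scaled with trimmed-mean (TMM) factors and fitted with robust quasi-likelihood models in edgeR 4.0.16 (R 4.3.3). Each prefix had 1 fit of its 15 libraries (16495 genes for ZK, 15795 for RM), and L4440_RM against L4440_ZK in a fit of all 30 libraries. p-values were adjusted over all genes of a comparison. The biological coefficient of variation was 5.42% in ZK and 11.7% in RM libraries, and 0 pairs of libraries had identical counts. The fit was also run on counts simulated from its own estimate of spread, with a small part of the genes changed in a single group. That setting does not cover a treatment in which most genes change, such as C01A2.5.

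Levels per kilobase used the union of annotated exons. Gene lists (HMG-box and HMGA proteins, histone chaperones, replacement variants, heterochromatin, sperm chromatin, histone mRNA 3′ ends, replication and division, core histones, cell type markers) came from general knowledge; the H1 genes and the lists were chosen with earlier results of these data known. All 9 H1 genes were named, and each target in its own treatment, some targets also in others. From each list at most 4 genes per comparison were named, by smallest p among those past the threshold. For each H1 gene, genes were named among the 3 with the highest Pearson correlation of log2 CPM. Alternatives were relative log expression factors, library totals, no filter, a replicate block, DESeq2 1.42.0, fits of all 30 or only 6 libraries, and fits without C01A2.5, without the third library of every RM group or without each library in turn. Replicate numbers are the order of libraries in a group by the running number in their titles. Per the labels, replicate 1 libraries were in sequencing lanes 1 and 2, replicate 2 in lanes 2 to 4 and replicate 3 in lanes 5 to 8, so the number goes with the lane in both prefixes; no label says that it marks a shared culture.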

Additional observations from a re-analysis of the deposited data

How the results depend on the processing

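Of 38 H1 values past the threshold against an L4440 group, or between the L4440 groups, 27 stayed past it under every alternative. These 38 gave 523 alternative values, all 523 with the same sign and 482 still called. Of 43 values not called, 8 were called under some alternative; 45 alternative values of uncalled genes changed sign without a call. Between RNAi groups, 45 of 65 called values stayed called under every alternative and all 1197 alternative values kept their sign. In R186.7 the count of 0 H1 genes became 1 with relative log expression factors (hil-4), 1 with library totals (hil-6), 1 with no filter (hil-3), 1 in a fit of 6 libraries (hil-2) and 3 with DESeq2. Without the third library of every RM group, an alternative chosen with earlier results known, 2 H1 genes were called in F25H2.5, 3 in F55H2.6 and 3 in libraries labelled R04E5.10, and 15 of 54 over the RM pairs. R04E5.10 also gave 3 in a fit of 6 libraries. The cause was not tested. Leaving out 1 library at a time gave 2 to 5 calls in F25H2.5, 5 to 7 in F55H2.6, 4 to 5 in libraries labelled R04E5.10, 5 to 6 in libraries labelled M04C9.5, 9 to 9 in C01A2.5, 0 to 0 in R186.7, ZK795.1 and F26D12.1, 6 to 7 between the L4440 groups, 36 to 38 over the ZK pairs and 21 to 27 over the RM pairs. The share of called genes that were higher depended on scaling: with the main factors, relative log expression factors and library totals it was 72.9%, 50.5% and 86.9% in R186.7, 65.9%, 47.7% and 51.6% in ZK795.1, 51.9%, 34.2% and 77.4% in libraries labelled M04C9.5, 54.8%, 41.7% and 81% in F55H2.6 and 54.5%, 47.5% and 77.6% between the L4440 groups. Same-numbered libraries did not deviate together throughout (correlations of -0.334 to 0.193 in ZK and -0.294 to 0.563 in RM), and 2 of 15 and 9 of 15 libraries correlated best with their own number. The median correlation in RM was 0.069 for same-numbered and -0.064 for other libraries, so RM libraries leaned towards their own number. In ZK it was -0.028 and 0.008, without such a lean. With the replicate block, which also separates the third libraries' lanes from the others, the count stayed 0 in R186.7 and 6 in libraries labelled M04C9.5, and the hil-5 difference between the L4440 groups was no longer called (adjusted p = 0.05146), nor was hil-5 between F55H2.6 and R04E5.10 (adjusted p = 0.05208). hil-6, hil-7 and hil-8 had the fewest counts, 10 to 779 per library, which limits small changes in them most.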

Other observations

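Of 8 replacement histone variants tested, 3 rose and 4 fell in C01A2.5, 3 rose in libraries labelled M04C9.5, 1 rose and 3 fell in F55H2.6 and 2 rose in F25H2.5. In R186.7, ZK795.1 and libraries labelled R04E5.10 or F26D12.1, 0 of 8 passed in the edgeR test; at an unadjusted p below 0.05 there were 2 in R186.7 and 2 in libraries labelled R04E5.10. his-71, which encodes H3.3, rose in C01A2.5 (log2 0.49 ± 0.08), in libraries labelled M04C9.5 (log2 0.62 ± 0.08, adjusted p = 9.152e-07) and in F55H2.6 (0.46 ± 0.10, adjusted p = 0.005105). his-72, another H3.3 gene, rose in libraries labelled M04C9.5 (0.25 ± 0.05) and in F25H2.5 (0.20 ± 0.06). his-74 fell in C01A2.5 (-1.09 ± 0.05) and F55H2.6 (-0.33 ± 0.07) and rose in F25H2.5 (0.28 ± 0.07). cec-4, which encodes a chromodomain protein that anchors heterochromatin at the nuclear periphery, rose in R186.7 (0.48 ± 0.05, adjusted p = 3.049e-07), in F55H2.6 (0.36 ± 0.07) and in F25H2.5 (0.26 ± 0.07). Of 17 genes of heterochromatin and silencing, 1 rose and 12 fell in C01A2.5, 1 rose and 1 fell in R186.7, 2 rose and 3 fell in F55H2.6 and 4 rose in F25H2.5. mes-6, a subunit of the worm Polycomb complex, fell in C01A2.5 (-1.01 ± 0.05), R186.7 (-0.29 ± 0.05) and F55H2.6 (-0.21 ± 0.07). Groups of a prefix share their controls.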
